A study of Mus musculus with 20 samples.

Results

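Tnf, Tnfsf9, Tnfsf15, Cd40, Fas and Tnfrsf1b are ligands and receptors of the tumour necrosis factor (TNF) superfamily whose messenger RNA was counted in stimulated mouse embryonic fibroblasts. They were chosen by gene symbol, with earlier results of these data known, and make up 6 of the 45706 genes in the count table. Primary fibroblasts of C57BL/6 mice were of 2 genotypes: crel-/-, which lack the NF-kB subunit c-Rel, and crel-/-RelA-TA-KI, which lack c-Rel and also carry a knock-in at the gene of the NF-kB subunit RelA. All libraries therefore came from cells without c-Rel, and the crel-/- cells are the control for the knock-in. What TA stands for is not spelled out in the sources used here, and neither is the number of embryos or cultures behind each genotype. Cells were grown in 10% bovine calf serum and held overnight in 0.5% serum. RNA was then taken from unstimulated cells (0 h) and after 0.5, 1 and 3 h with 10 ng/ml interleukin-1b (IL-1b), 100 ng/ml lipopolysaccharide (LPS) or 10 ng/ml TNF. Each of the 10 conditions had 1 library per genotype, 20 in all. No condition was repeated within a genotype, so the matched pairs stand in for replicates of the genotype difference, and the p-values measure only the spread among these libraries.

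TNF superfamily ligands are membrane or secreted trimers that bind matching receptors. Receptors of the family recruit TRAF adaptor proteins, which lead to NF-kB and MAP kinase activation, and those with a death domain can also start apoptosis. NF-kB dimers containing RelA enter the nucleus after IL-1b, LPS or TNF and activate genes of inflammation, several members of the family and the inhibitors of the pathway among them. Fibroblasts carry receptors for all 3 agents. The TNF added to the medium was protein, so the Tnf counts report the transcript of the cells.

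On the mm10 build, Tnf (ENSMUSG00000024401.12) spans chr17:35199381-35202007 on the minus strand. Tnfsf9 (ENSMUSG00000035678.7) spans chr17:57105385-57107757 on the plus strand. Tnfsf15 (ENSMUSG00000050395.8) spans chr4:63727084-63745113 on the minus strand. These are the ligands. Of the receptors, Cd40 (ENSMUSG00000017652.14) spans chr2:165055627-165072948 and Fas (ENSMUSG00000024778.10) spans chr19:34290659-34327770, both on the plus strand. Tnfrsf1b (ENSMUSG00000028599.8) spans chr4:145213463-145246870 on the minus strand. Counts are over the exons of each gene, and no exon of another gene overlapped them. Tnfsf9 overlaps Gm11110 on the opposite strand, and Fas holds Gm27818 on its own strand, both outside the exons.

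Promoter sequences from RefSeq (GRCm38.p6) matched 4 of the 6 genes: Tnf, Tnfsf15, Fas and Tnfrsf1b. Cd40 and Tnfsf9 had no match. The 250 bases before the start of transcription are shown for Tnf, which passed between genotypes at 0.5 h and 3 h, Fas, which passed at 1 h and 3 h, and Tnfrsf1b, which passed at none of these times. They are written 5′ to 3′ on the strand of the gene. Capitals mark a TATA box (TATAAA, searched on the strand of the gene), an AP-1 motif (TGANTCA), a STAT-type GAS motif (TTC and GAA with 3 bases between) and an interferon-type element (GAAA repeated after 2 bases). The last 3 were searched on both strands.
Tnf, chr17:35202008-35202257, minus strand: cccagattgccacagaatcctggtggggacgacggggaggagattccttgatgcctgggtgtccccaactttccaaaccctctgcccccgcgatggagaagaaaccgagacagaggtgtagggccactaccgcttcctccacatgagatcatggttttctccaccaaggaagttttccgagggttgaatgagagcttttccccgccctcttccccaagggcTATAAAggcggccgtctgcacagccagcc
Fas, chr19:34290409-34290658, plus strand: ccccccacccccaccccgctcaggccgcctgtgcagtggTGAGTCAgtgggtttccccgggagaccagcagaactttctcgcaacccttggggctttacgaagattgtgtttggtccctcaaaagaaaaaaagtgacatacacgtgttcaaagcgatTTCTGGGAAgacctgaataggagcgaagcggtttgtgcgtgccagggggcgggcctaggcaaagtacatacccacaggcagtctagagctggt
Tnfrsf1b, chr4:145246871-145247120, minus strand: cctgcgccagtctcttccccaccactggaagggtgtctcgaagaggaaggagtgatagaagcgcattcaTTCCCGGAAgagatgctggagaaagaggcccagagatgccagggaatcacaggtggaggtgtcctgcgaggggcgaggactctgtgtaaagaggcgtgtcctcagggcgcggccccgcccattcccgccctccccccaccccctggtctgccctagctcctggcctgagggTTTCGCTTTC
The Tnf window held the TATA box at -29 to -24, which 7.6% of 32851 promoter windows of this length hold. The Fas window held an AP-1 motif at -211 to -205 (in 6.7% of windows) and a GAS motif at -93 to -85 (in 7.0%). The Tnfrsf1b window held a GAS motif at -181 to -173 and the interferon-type element, on the opposite strand, at -10 to -1 (in 3.0%). The strict NF-kB consensus was in 3.9% of windows and in none of the 4 searched here. A looser NF-kB pattern (GGG and CC with 5 bases between), not in capitals, was in the windows of Tnf, Fas and Tnfrsf1b and in 45.8% of all windows. The cyclic AMP element (TGAC joined to GTCA) was in 1.5% of windows and in none of these 4. A match is a description of letters in the window and shows no binding.

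Total counts were 9248151 to 12574135 per library, so 3 counts, the limit that a count of 0 allows, stood for 0.222 to 0.435 CPM. CPM is the count scaled by library size, here adjusted by the trimmed mean of M-values (TMM). The 2 LPS 3 h libraries had TMM factors of 0.723 and 0.732, against 0.979 or above in the other libraries. The 10 fibroblast markers summed to 53532 to 82283 CPM and none was at 0 in any library. All 14 macrophage markers were also present in every library, with a summed level of 2822 to 5785 CPM in crel-/- and 2862 to 5446 CPM in knock-in libraries. The 6 lymphocyte markers summed to at most 0.170 CPM, with 4 to 6 of them at 0. Endothelial markers summed to 11.1 to 76.2 CPM and epithelial markers to 5.71 to 16.9 CPM. Rel was counted at 16.2 to 62.0 CPM in crel-/- and 16.5 to 34.9 CPM in knock-in libraries, and Rela at 72.7 to 354 and 75.9 to 196 CPM. Counts over whole genes do not show which allele they come from, so they check neither genotype.

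In unstimulated cells the receptor genes Tnfrsf1b and Fas had the highest levels of the 6 and Cd40 the lowest. Per kilobase of exon, the scale on which genes can be compared, Tnfrsf1b was at 26.3 CPM per kilobase in crel-/- and 29.7 in knock-in cells. Fas was at 6.80 and 6.17, Tnfsf9 at 2.43 and 2.55, and Tnf at 1.28 and 0.932. Tnfsf15 was at 0.385 and 0.659 and Cd40 at 0.189 and 0.199. At 3 h of LPS the order in crel-/- cells was another one: Tnf was highest at 550.4 CPM per kilobase, followed by Fas at 148 and Tnfrsf1b at 136, then Tnfsf15 at 50.9, Cd40 at 33.7 and Tnfsf9 at 3.89. The knock-in cells at 3 h of LPS had Tnf at 70.4, Tnfrsf1b at 45.5, Fas at 42.5, Tnfsf15 at 10.5, Cd40 at 7.53 and Tnfsf9 at 2.74. Fas stood above Tnfrsf1b in crel-/- cells and below it in knock-in cells. With 1 library each, the neighbours have no replicate spread to be compared with.

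**Figure D1:**
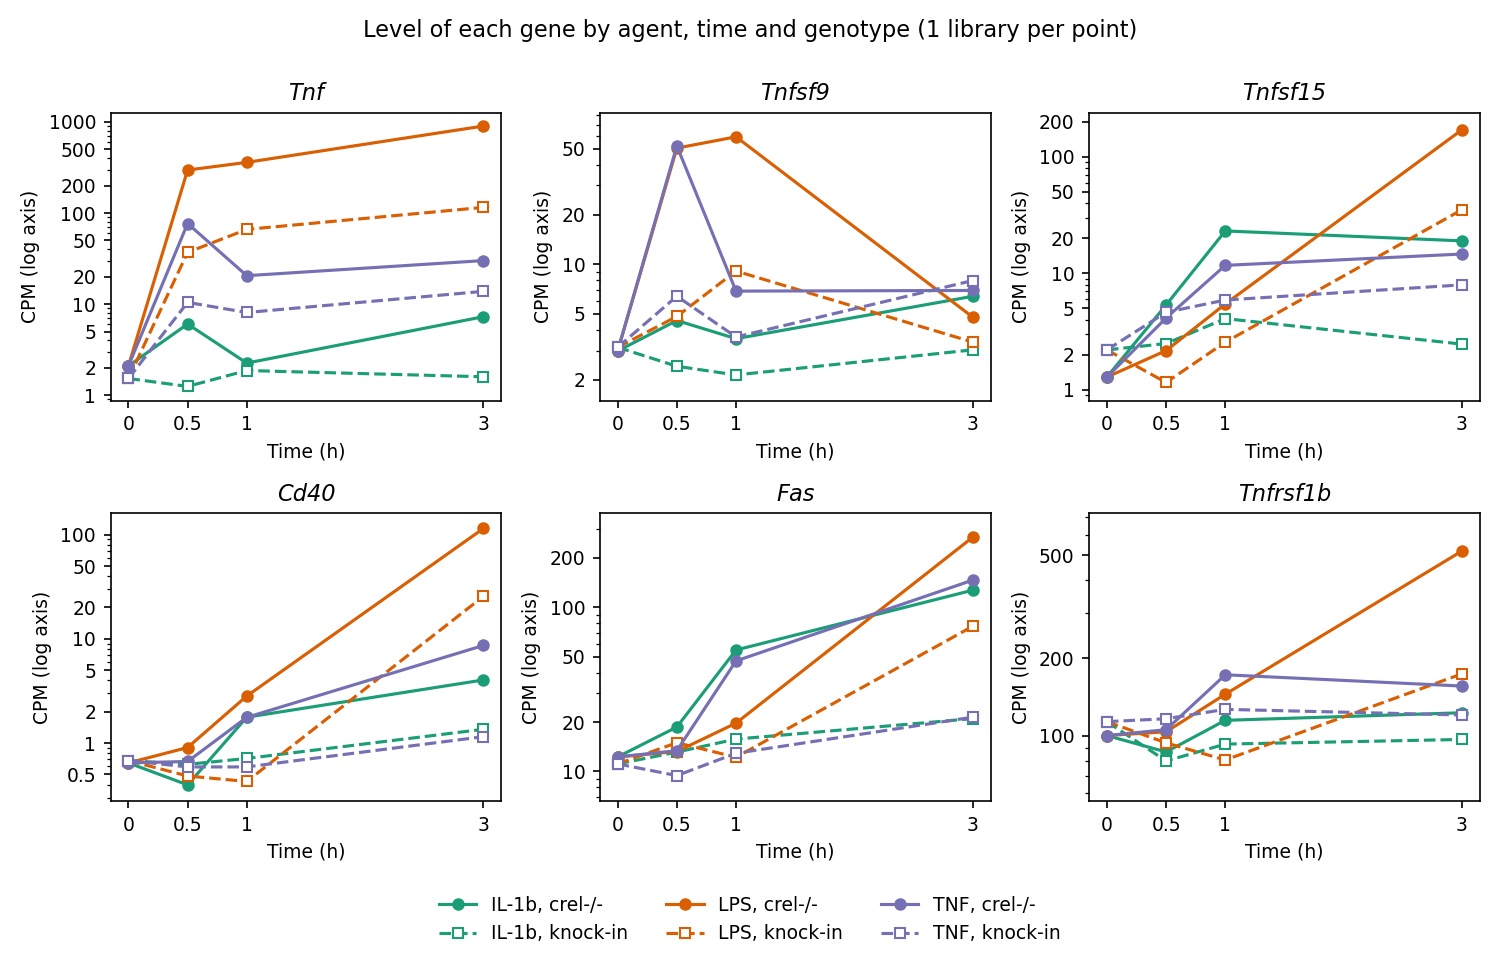
Level of each gene in TMM-scaled CPM (log axis) against hours of stimulation; each point is 1 library, colours are agents, filled circles with solid lines are crel-/- cells and open squares with dashed lines knock-in cells. At 3 h of LPS the crel-/- point lies above the knock-in point for all 6 genes, by the least for Tnfsf9 (4.78 and 3.38 CPM). At 0 h the widest gap on the log axis is that of Tnfsf15, at 1.29 CPM in crel-/- and 2.21 CPM in knock-in cells.

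Tnf, the founding cytokine of the family, was the gene with the widest range and the only one lower in knock-in cells in all 10 pairs. With LPS its level in crel-/- cells was 296 CPM at 0.5 h, 359.8 at 1 h and 902 at 3 h, from 2.10 at 0 h. In knock-in cells it was 37.0, 66.1 and 115 CPM, from 1.53. These are 430-fold and 75.6-fold over 0 h at 3 h (95% counting intervals 293 to 659 and 47.6 to 128, which cover counting error only). With TNF the crel-/- libraries held 76.7, 20.5 and 30.1 CPM at 0.5, 1 and 3 h, and the knock-in libraries 10.4, 8.09 and 13.8 CPM. The crel-/- level with TNF was thus highest at the earliest time. The knock-in folds over 0 h with TNF had overlapping counting intervals (4.15 to 11.9, 3.18 to 9.32 and 5.53 to 15.7). The order of the knock-in times is thus not settled. With IL-1b the crel-/- libraries held 6.05, 2.25 and 7.28 CPM and the knock-in libraries 1.25, 1.87 and 1.59 CPM. The knock-in levels with IL-1b were 0.818, 1.22 and 1.04 of the level at 0 h, with counting intervals that all held 1.

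Against 0 h, with both genotypes together, Tnf rose with LPS by log2 values of 6.25 at 0.5 h, 6.75 at 1 h and 7.86 at 3 h (SE 0.71, 0.71 and 0.72; adjusted p = 9.59e-04, 2.70e-04 and 8.38e-06, edgeR's quasi-likelihood test with Benjamini-Hochberg adjustment over 14023 genes, used throughout). With TNF it rose by 4.38 at 0.5 h (SE 0.74, adjusted p = 0.048) and by 3.77 at 3 h (SE 0.77, adjusted p = 0.0051); the 1 h value of 3.08 did not pass (adjusted p = 0.068). None of the IL-1b values passed. The 3 h level under LPS exceeded that under TNF by 4.08 (SE 0.54, adjusted p = 1.47e-04) and that under IL-1b by 6.63 (SE 0.64, adjusted p = 1.83e-05). That under IL-1b was below that under TNF (log2 difference -2.55, SE 0.68, adjusted p = 0.031). The TNF 0.5 h call was lost without any 1 of its 4 libraries (adjusted p = 0.111 to 0.784), and the TNF 3 h call without the crel-/- 0 h library (adjusted p = 0.126). The call between IL-1b and TNF was lost without the crel-/- IL-1b 3 h library (0.201), the knock-in IL-1b 3 h library (0.094) or the knock-in TNF 3 h library (0.117).

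The knock-in level of Tnf was 12.5%, 18.4% and 12.8% of the crel-/- level at 0.5, 1 and 3 h of LPS. It was 13.6%, 39.4% and 46.0% at the same times of TNF. Over all conditions Tnf was lower in knock-in cells (log2 difference -2.27, SE 0.28, adjusted p = 4.49e-04). At 0 h the pair differed by less than its counting error: the crel-/- level was 1.37-fold the knock-in level (95% counting interval 0.724 to 2.66), from 26 and 18 counts.

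Tnfsf9 encodes 4-1BBL, the ligand of a T cell costimulatory receptor. Its crel-/- levels were a short pulse: with TNF 52.1 CPM at 0.5 h, 6.87 at 1 h and 6.94 at 3 h, and with LPS 50.5 CPM at 0.5 h, 59.2 at 1 h and 4.78 at 3 h. At 0 h it was 2.98 CPM, and with IL-1b it was between 3.54 and 6.39 CPM. Knock-in libraries held 2.13 to 9.10 CPM in all 10 conditions. The pulse was thus visible in the 3 crel-/- libraries at 50.5 CPM and above, which no knock-in library came near, while all other libraries of both genotypes overlapped.

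In those 3 conditions the knock-in level was 9.55% (LPS 0.5 h), 15.4% (LPS 1 h) and 12.3% (TNF 0.5 h) of the crel-/- level. By 3 h of TNF it was 115%. Over all conditions Tnfsf9 was lower in knock-in cells (log2 difference -1.62, SE 0.42, adjusted p = 0.027). This call was lost without the LPS 0.5 h pair (adjusted p = 0.057), the LPS 1 h pair (0.073) or the TNF 0.5 h pair (0.066). It was also lost without the filter on low counts (0.062). Against 0 h, with both genotypes together, Tnfsf9 rose at 1 h of LPS by 3.18 (SE 0.89, adjusted p = 0.042). The values at 0.5 h were 2.81 with LPS (adjusted p = 0.104) and 2.92 with TNF (adjusted p = 0.374). The LPS 1 h call was lost without any 1 of its 4 libraries (adjusted p = 0.052 to 0.341).

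Tnfsf15 encodes TL1A, a ligand of the death receptor DR3. In crel-/- cells it was at 1.29 CPM at 0 h and 5.35, 23.1 and 19.0 CPM at 0.5, 1 and 3 h of IL-1b. With LPS it was at 2.17, 5.46 and 170 CPM, and with TNF at 4.14, 11.7 and 14.6 CPM. Knock-in levels were 2.21 CPM at 0 h, 2.50, 4.09 and 2.47 CPM with IL-1b, 1.16, 2.57 and 35.1 CPM with LPS, and 4.63, 5.90 and 7.97 CPM with TNF. In these single crel-/- libraries IL-1b had its highest level at 1 h, while LPS stayed under 6 CPM until 3 h. The folds over 0 h at 1 and 3 h of IL-1b had overlapping 95% counting intervals (10.8 to 31.8 and 8.83 to 26.3). The order of these 2 times was not tested.

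With both genotypes together Tnfsf15 rose against 0 h at 1 h of IL-1b by 2.75 (SE 0.79, adjusted p = 0.041), at 3 h of LPS by 5.63 (SE 0.73, adjusted p = 8.11e-05) and at 3 h of TNF by 2.67 (SE 0.81, adjusted p = 0.028). The IL-1b value at 3 h, 2.36, just missed the threshold (adjusted p = 0.051). The 3 h level under LPS exceeded that under TNF by 2.96 (SE 0.58, adjusted p = 0.0017) and that under IL-1b by 3.27 (SE 0.58, adjusted p = 9.48e-04). The IL-1b 1 h call was lost without the crel-/- 0 h library (adjusted p = 0.396) or the crel-/- IL-1b 1 h library (0.343). The TNF 3 h call was lost without the crel-/- 0 h (0.306), crel-/- TNF 3 h (0.058) or knock-in TNF 3 h library (0.097).

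Over all conditions Tnfsf15 was lower in knock-in cells (log2 difference -1.44, SE 0.32, adjusted p = 0.013). Its knock-in level was 17.7% and 13.0% of the crel-/- level at 1 and 3 h of IL-1b and 20.6% at 3 h of LPS. With TNF it was 112%, 50.4% and 54.4% at 0.5, 1 and 3 h. The genotype difference under IL-1b minus that under TNF was -1.68 (SE 0.51, unadjusted p = 0.0105, adjusted p = 0.296), the smallest unadjusted p of any of the 6 genes in the comparisons between agents.

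Cd40, the receptor for CD40 ligand, was the least abundant of the 6 before stimulation, at 8 counts in each 0 h library (0.645 and 0.679 CPM). In crel-/- cells it was at 0.906, 2.83 and 115 CPM at 0.5, 1 and 3 h of LPS, at 0.665, 1.76 and 8.65 CPM with TNF and at 0.397, 1.77 and 4.03 CPM with IL-1b. In knock-in cells it was at 0.483, 0.428 and 25.6 CPM with LPS, at 0.590, 0.590 and 1.15 CPM with TNF and at 0.625, 0.711 and 1.36 CPM with IL-1b. Knock-in levels so stayed under 1.5 CPM everywhere but at 3 h of LPS, where the fold over 0 h was 37.8 (95% counting interval 18.8 to 88.7) against 178 (89.9 to 414) in crel-/- cells. The gene encoding its ligand, Cd40lg, had 0 counts in all 20 libraries.

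Cd40 was lower in knock-in cells over all conditions (log2 difference -1.78, SE 0.26, adjusted p = 5.03e-04). The knock-in level was 22.3% of the crel-/- level at 3 h of LPS, 13.3% at 3 h of TNF and 33.6% at 3 h of IL-1b. Against 0 h Cd40 rose at 3 h by 6.59 with LPS (SE 0.48, adjusted p = 1.91e-07), 2.76 with TNF (SE 0.59, adjusted p = 0.0037) and 2.0 with IL-1b (SE 0.65, adjusted p = 0.034). The 3 h level under LPS exceeded that under TNF by 3.83 (SE 0.36, adjusted p = 2.61e-06) and that under IL-1b by 4.59 (SE 0.39, adjusted p = 1.16e-06). The TNF call was lost without the crel-/- 0 h library (adjusted p = 0.184) or the crel-/- TNF 3 h library (0.158). The IL-1b call was lost without the crel-/- 0 h (0.559), crel-/- IL-1b 3 h (0.149) or knock-in IL-1b 3 h library (0.064).

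Fas, a death receptor that starts apoptosis when bound by Fas ligand, was above 100 CPM in crel-/- cells at 3 h of each agent. From 12.3 CPM at 0 h it was at 18.6, 54.9 and 127 CPM at 0.5, 1 and 3 h of IL-1b. It was at 13.2, 19.7 and 267 CPM with LPS and at 13.4, 47.1 and 146 CPM with TNF. In knock-in cells Fas was at 11.1 CPM at 0 h and, at 3 h, 21.0 CPM with IL-1b, 76.5 with LPS and 21.4 with TNF. At 0.5 and 1 h the knock-in levels lay between 9.43 and 15.7 CPM. The 3 crel-/- libraries at 3 h all lay above every knock-in library. The gene of its ligand, Fasl, had 1 count in all libraries together.

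Fas was lower in knock-in cells over all conditions (log2 difference -1.39, SE 0.33, adjusted p = 0.018). At 3 h of IL-1b the crel-/- level was 6.06-fold the knock-in level (95% counting interval 5.30 to 6.94), and at 3 h of TNF 6.83-fold (5.94 to 7.89). With LPS at 3 h it was 3.49-fold (3.18 to 3.83). Against 0 h Fas rose at 3 h by 3.63 with LPS (SE 0.73, adjusted p = 0.0018), 2.46 with TNF (SE 0.72, adjusted p = 0.026) and 2.29 with IL-1b (SE 0.72, adjusted p = 0.037). The agents were not told apart at 3 h: LPS exceeded TNF by 1.17 (SE 0.63, adjusted p = 0.151) and IL-1b by 1.34 (SE 0.63, adjusted p = 0.108). The TNF and IL-1b calls were lost without the crel-/- 0 h library (adjusted p = 0.216 and 0.279) or the crel-/- 3 h library of that agent (0.225 and 0.302).

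Tnfrsf1b, which encodes TNF receptor 2, was the most abundant of the 6 before stimulation and the one whose genotype difference did not pass the test. Its crel-/- level was 100.3 CPM at 0 h, 103.7, 144.9 and 519 CPM at 0.5, 1 and 3 h of LPS, 105.7, 172 and 156 CPM with TNF and 86.7, 114.9 and 122.9 CPM with IL-1b. Its knock-in level was 113.5 CPM at 0 h, 94.0, 80.7 and 174 CPM with LPS, 116.5, 127 and 120.4 CPM with TNF and 80.0, 92.9 and 96.9 CPM with IL-1b. The libraries of the genotypes overlapped apart from the crel-/- LPS 3 h library, which stood far above the rest at 2.99-fold its knock-in partner (95% counting interval 2.81 to 3.18).

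Tnfrsf1b rose at 3 h of LPS against 0 h (log2 change 1.59, SE 0.35, adjusted p = 0.0029), the only one of its 9 responses to pass. The 3 h level under LPS exceeded that under TNF by 1.25 (SE 0.35, adjusted p = 0.012) and that under IL-1b by 1.58 (SE 0.35, adjusted p = 0.0038). Over all conditions the log2 difference was -0.38 (SE 0.16, adjusted p = 0.135), which did not pass; DESeq2 put the same difference at an adjusted p of 0.044. The LPS against TNF call was lost without the crel-/- LPS 3 h library (difference 0.48, adjusted p = 0.148), the crel-/- TNF 3 h library (0.069) or the knock-in TNF 3 h library (0.061), and when libraries were scaled by their total alone (difference 0.79, adjusted p = 0.059). The gene of the other TNF receptor, Tnfrsf1a, was at 132 to 281 CPM and rose at 3 h of LPS by 0.92 (SE 0.15, adjusted p = 2.1e-04), which did not pass by library totals (0.31, adjusted p = 0.059).

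Counted together, 5 of the 6 genes were lower in knock-in cells over all conditions. Of the 14023 genes tested, 15.8% passed in this comparison, 7.81% as lower. The count remained between 4 and 5 when any 1 pair was left out. The 6 genes were chosen with earlier results of these data known. Their counts, here and at each time, are thus no test of the family against all genes. In bulk RNA a lower level can mean fewer cells expressing a gene or less RNA in each, and these cannot be told apart. Markers of macrophages, cells that also express these genes, were compared alongside. In that comparison 2 of 14 were lower (Lyz2 at -0.49 and C1qa at -0.14) and none higher, with a median of -0.09 over the list against 0.00 over all genes. Their summed level was 5219 CPM in crel-/- and 4508 in knock-in cells at 0 h, and 4218 and 2922 CPM at 3 h of LPS. Within pairs this sum was lower in the knock-in library everywhere but at 1 h of LPS (2822 CPM in crel-/- and 2862 in knock-in cells). Of the 10 fibroblast markers 4 were higher in knock-in cells (Thy1 by 0.68) and 1 lower over all conditions, and 4 higher and 2 lower at 3 h. Of the 3 epithelial markers tested 2 were higher over all conditions (Krt18 by 1.07 and Krt19 by 0.46) and 1 at 3 h, and none of the 3 endothelial markers tested passed. The part of these markers in the differences was not tested.

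**Figure D2:**
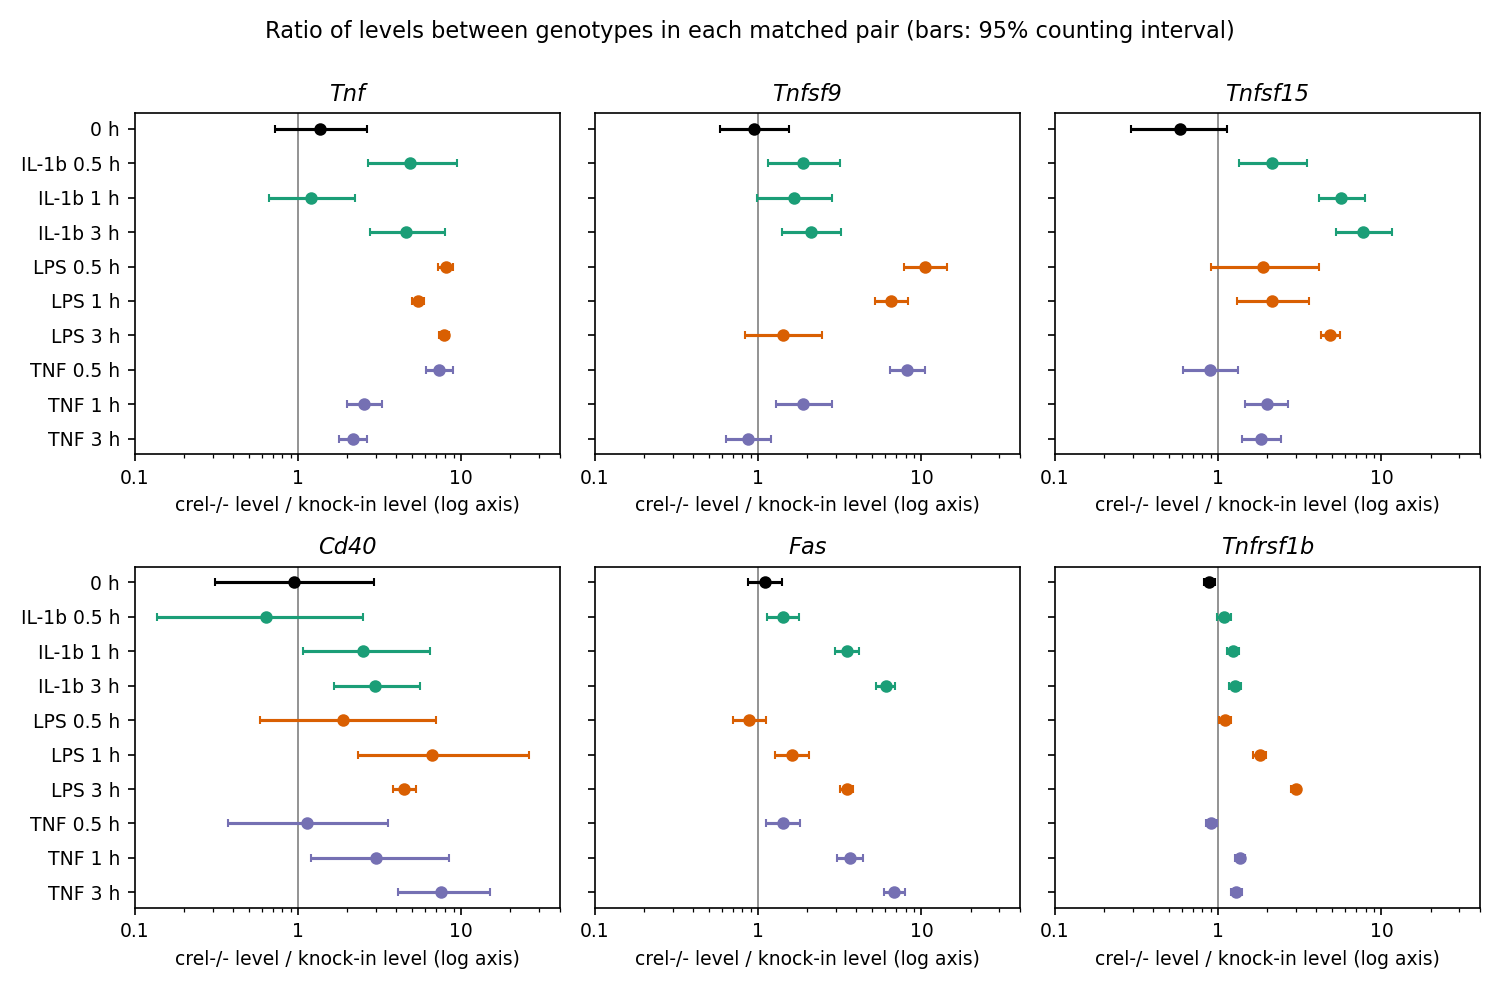
Ratio of the crel-/- to the knock-in level of each gene in each of the 10 matched pairs (log axis), with 95% intervals that cover counting error only; colours are agents, and the vertical line is a ratio of 1. The Tnf ratios lie above 1 in every pair, the Tnfsf9 ratios stand highest at 0.5 and 1 h of LPS and 0.5 h of TNF, and the Fas ratios at 3 h of IL-1b and TNF.

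The genotype difference was also fitted at each time. At 0.5 h, Tnf was lower in knock-in cells (log2 difference -2.90, SE 0.44, adjusted p = 0.024) and Tnfsf9 likewise (-2.80, SE 0.50, adjusted p = 0.035), 2 of the 6 genes, where 2.57% of all genes passed (1.32% as lower). The other 4 had values between -0.49 and -0.04. At 1 h, Cd40 (-1.80, SE 0.37, adjusted p = 0.021) and Fas (-1.53, SE 0.29, adjusted p = 0.035) were lower, again 2 of 6, where 3.42% of all genes passed (2.04% as lower). Values at 1 h for Tnf (-1.96, adjusted p = 0.089), Tnfsf9 (-1.80, 0.150) and Tnfsf15 (-1.61, 0.132) were as large and did not pass. At 3 h, Tnf (-2.30, SE 0.44, adjusted p = 0.015), Tnfsf15 (-2.01, SE 0.39, adjusted p = 0.012), Cd40 (-2.20, SE 0.20, adjusted p = 3.43e-05) and Fas (-2.36, SE 0.25, adjusted p = 7.00e-04) were lower. These were 4 of 6, where 16.6% of all genes passed (8.35% as lower). Tnfsf9 (-0.38, adjusted p = 0.724) and Tnfrsf1b (-0.77, adjusted p = 0.085) did not pass at 3 h, although DESeq2 put Tnfrsf1b at -0.76 with an adjusted p of 0.0051.

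Each of these counts rests on 3 pairs. Leaving out the LPS 3 h pair ended the 3 h calls of Tnf (-1.38, adjusted p = 0.108) and Tnfsf15 (-1.77, adjusted p = 0.087), and Cd40 and Fas still passed without any 1 pair. At 0.5 h the Tnf call was lost without any 1 of the 3 pairs at that time (adjusted p = 0.117 without IL-1b, 0.261 without LPS, 0.136 without TNF), and the Tnfsf9 call without the LPS 0.5 h (0.268), TNF 0.5 h (0.208), IL-1b 1 h (0.054) or LPS 3 h pair (0.059). At 1 h the Cd40 call was lost without the IL-1b (0.071), LPS (0.152) or TNF pair (0.110) of that time, and the Fas call without the IL-1b 1 h (0.244), TNF 1 h (0.227), IL-1b 0.5 h (0.064) or TNF 0.5 h pair (0.065).

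The change of the genotype difference between times was tested directly. The difference at 3 h minus that at 0.5 h was -2.08 for Fas (SE 0.40, adjusted p = 0.039), so the difference was larger at 3 h. It was the only 1 of the 6 genes to pass, where 3.44% of all genes did. Without the filter on low counts Fas did not pass (adjusted p = 0.099) and Cd40 did (-1.97, adjusted p = 0.021), and with DESeq2 Cd40 (adjusted p = 0.031) and Tnfsf9 (0.040) passed beside Fas. Cd40 (-1.99, SE 0.53, adjusted p = 0.067) and Tnfsf15 (-1.52, SE 0.70, adjusted p = 0.357) had values of the same sign. Tnfsf9 had the opposite sign (2.41, SE 0.76, adjusted p = 0.173), and Tnf (0.61, SE 0.62, adjusted p = 0.726) and Tnfrsf1b (-0.74, SE 0.35, adjusted p = 0.386) lay in between. The Fas call was lost without any 1 of 7 pairs (adjusted p = 0.056 to 0.137): all 3 pairs at 0.5 h, the IL-1b and TNF pairs at 1 h and the IL-1b and TNF pairs at 3 h.

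**Figure D3:**
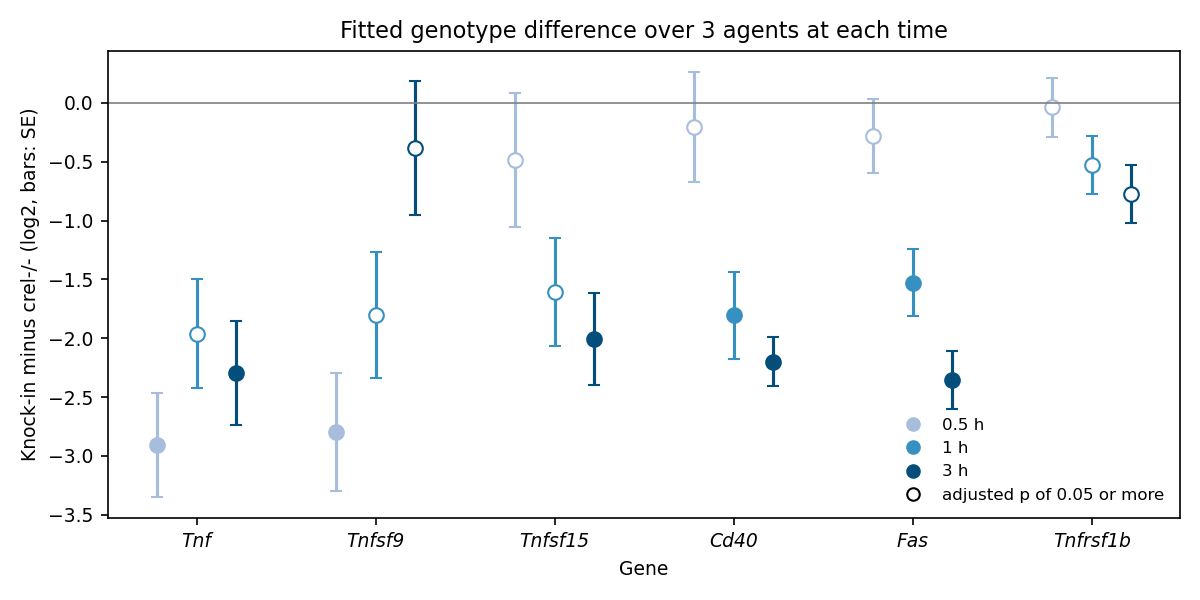
Fitted genotype difference (log2, knock-in minus crel-/-) of each gene at 0.5, 1 and 3 h, over 3 pairs at each time; bars are standard errors, and filled points passed the adjusted threshold of 0.05. Tnf and Tnfsf9 are lowest at 0.5 h, and Fas, Cd40 and Tnfsf15 at 3 h.

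By edgeR, no gene was shown to differ in its genotype difference between stimulated and unstimulated cells, a comparison that rests on 1 pair at 0 h. For the 6 genes the difference in stimulated pairs minus that at 0 h was -0.62 to -2.31, with standard errors of 0.50 to 1.55 and adjusted p = 1. Of all genes, 0% passed by edgeR (450 at an unadjusted p under 0.05), 0 by limma-voom and 6 by DESeq2, none of the 6 genes among them. Between agents, none of the 6 passed either, where 0.0214% of all genes did for LPS minus TNF and 0.349% for IL-1b minus TNF. For LPS minus IL-1b 0% passed by edgeR (572 genes at an unadjusted p under 0.05), 3 genes by limma-voom and 23 by DESeq2.

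Over the 2 genotypes together, the 6 genes and the share of all genes that rose were counted for each agent and time. With LPS, 1 rose at 0.5 h (Tnf, where 3.56% of all genes rose), 2 at 1 h (Tnf and Tnfsf9, 7.58%) and 5 at 3 h (all but Tnfsf9, 29.2%). With IL-1b, none rose at 0.5 h (5.75%), Tnfsf15 at 1 h (8.38%) and Cd40 and Fas at 3 h (16.9%). With TNF, Tnf rose at 0.5 h (0.314%), none at 1 h (2.25%) and Tnf, Tnfsf15, Cd40 and Fas at 3 h (18.7%). Scaled by library totals alone, the median of all genes moved to -0.62 at 3 h of LPS, with 1707 genes rising and 9108 falling in place of 4099 and 3962, and to between -0.13 and -0.15 at 1 and 3 h of IL-1b, 1 h of LPS and 3 h of TNF. The same number of the 6 genes rose in each of the 9 comparisons under that scaling. At 3 h, 4 of 6 were higher with LPS than with TNF (24.3% of all genes) and 4 of 6 higher with LPS than with IL-1b (23.8%), Tnf, Tnfsf15, Cd40 and Tnfrsf1b in each case, and these contrasts share the LPS libraries. With IL-1b, Tnf alone was lower than with TNF (7.93% of all genes).

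Without the crel-/- 0 h library, which every response uses, no member rose with TNF at any time or with IL-1b at any time, while the 5 responses to LPS at 3 h still passed. Macrophage markers moved with the agents too: at 3 h, 10 of 14 fell with IL-1b (Cx3cr1 by 1.44), 9 fell and 2 rose with LPS (Cx3cr1 fell by 3.72, Ptprc rose by 1.36), and 4 rose with TNF (C1qa by 0.62). By library totals 12 fell and 1 rose with LPS, and 1 fell and 2 rose with TNF. Their part in the responses was not tested. Of the 10 fibroblast markers, 6 rose with LPS at 3 h (Fn1 by 1.45), where by library totals 1 rose and 7 fell, 1 rose with IL-1b (Fn1 by 1.04; 1 rose and 3 fell by library totals), and 1 rose and 1 fell with TNF (0 and 1 by library totals). Of 3 endothelial markers tested 1 rose with LPS (Kdr, by 2.62), and by library totals 1 rose and 1 fell with LPS and 2 fell with IL-1b. Of 3 epithelial markers 1 rose with TNF (Krt19, by 0.60; none by library totals), and by library totals 2 fell with LPS. The part of these markers was not tested either.

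A model with a separate genotype effect at each time, added after the data were seen, gave fitted responses for each genotype. The 3 agents share that effect, so at a given time the fitted responses of the genotypes differ by the same amount under each agent. In crel-/- cells at 3 h, Tnfsf15 (3.60), Cd40 (2.82) and Fas (3.28) rose with IL-1b (adjusted p = 0.020, 0.0021 and 0.0021), where 15.6% of all genes rose. With TNF, Tnf (4.30), Tnfsf15 (3.97), Cd40 (3.57) and Fas (3.42) rose (adjusted p = 0.015, 0.013, 2.79e-04 and 0.0015), where 16.9% did. In knock-in cells no member passed at 3 h of IL-1b, where 6.91% of all genes rose, or of TNF, where 9.45% did. With LPS at 3 h, 5 of 6 passed in crel-/- cells (26.3% of all genes rose) and Tnf (6.62), Tnfsf15 (4.14), Cd40 (5.20) and Fas (2.50) passed in knock-in cells (23.8%). Each fitted response draws on the 3 pairs of its time and on 1 library at 0 h, with the spread taken from all libraries. It is not the value of the single libraries. Over 0 h, the knock-in TNF 3 h library held Tnf at 9.05-fold (95% counting interval 5.53 to 15.7) and Tnfsf15 at 3.61-fold (2.30 to 5.85). Tnfsf9 was at 2.54-fold (1.70 to 3.85) and Fas at 1.93-fold (1.55 to 2.41). The intervals of Cd40 (0.638 to 4.79) and Tnfrsf1b (0.982 to 1.15) held 1. A response that did not pass is thus not shown to be absent. Passing in one genotype and not in the other is no test of a difference, and in the test of stimulated pairs against the 0 h pair none of the 6 genes passed.

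Among the 15 other ligands of the family, 7 were high enough to be tested. After 3 h of LPS 5 rose and 1 fell (5 and 2 by library totals), against 29.2% and 28.3% of all genes, with a median of 4.31 over the 7 against -0.01 over all genes. Tnfsf10, the death ligand TRAIL, rose (log2 change 8.78, SE 0.59, adjusted p = 4.3e-07), from 0.403 and 0.679 CPM at 0 h to 283 CPM in crel-/- and 184 CPM in knock-in cells. Tnfsf4, the OX40 ligand, had 0 counts in both 0 h libraries and 61 and 88 counts at 3 h of LPS, at least 36.5-fold higher in crel-/- and at least 43.2-fold higher in knock-in cells against a floor of 3 counts per library; the list's median with this bound was 4.31. Tnfsf8, the CD30 ligand, rose by 5.32 and Tnfsf18, the GITR ligand, by 4.31. Tnfsf12, the ligand TWEAK, fell by 0.84. With TNF at that time 4 rose and 1 fell (18.7% and 16.0% of all genes), and at 3 h of IL-1b 2 rose and 1 fell (16.9% and 13.8%). In the genotype comparison, 1 of the 7 was lower over all conditions, where 7.81% of all genes were (Tnfsf8, log2 difference -1.84, SE 0.43, adjusted p = 0.014), and none of the 7 passed at 3 h (median -0.16). Tnfsf18 and Tnfsf4 stood higher in the knock-in LPS 3 h library (6.88 and 11.0 CPM) than in the crel-/- one (1.88 and 8.84 CPM). In the same pair Tnfsf12 and Eda also stood higher in knock-in cells, while Tnfsf8, Tnfsf10 and Tnfsf11 stood lower. At 3 h of TNF, Tnfsf4 was lower in knock-in cells (0.480 CPM against 1.80 in crel-/- cells). These are single libraries.

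Of the 25 other receptors, 18 were tested. By 3 h of LPS 9 rose and 2 fell (median 0.77), against 29.2% and 28.3% of all genes, while by library totals 3 rose and 6 fell. The largest rises were those of Tnfrsf11b, the decoy receptor osteoprotegerin (2.52, SE 0.32), Tnfrsf12a, the TWEAK receptor (2.09, SE 0.30), Relt (1.87, which did not pass by library totals) and Eda2r (1.67). Ngfr, a neurotrophin receptor, fell by 2.27 and Tnfrsf13b by 1.23. With TNF 6 rose and 1 fell (18.7% and 16.0% of all genes), and at 3 h of IL-1b 5 rose and 3 fell (16.9% and 13.8% of all genes; 2 and 3 of the list by library totals). The genotype comparison at 3 h went both ways: 2 were higher in knock-in cells (Tnfrsf11b by 0.77 and Eda2r by 0.42) and 3 lower (log2 differences of -1.43 for Tnfrsf14, -1.27 for Tnfrsf4 and -1.22 for Tnfrsf19), with a median of -0.06, where 8.20% of all genes were higher and 8.35% lower. Over all conditions 2 were higher and 1 lower, a share close to the 15.8% of all genes.

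**Figure D4:**
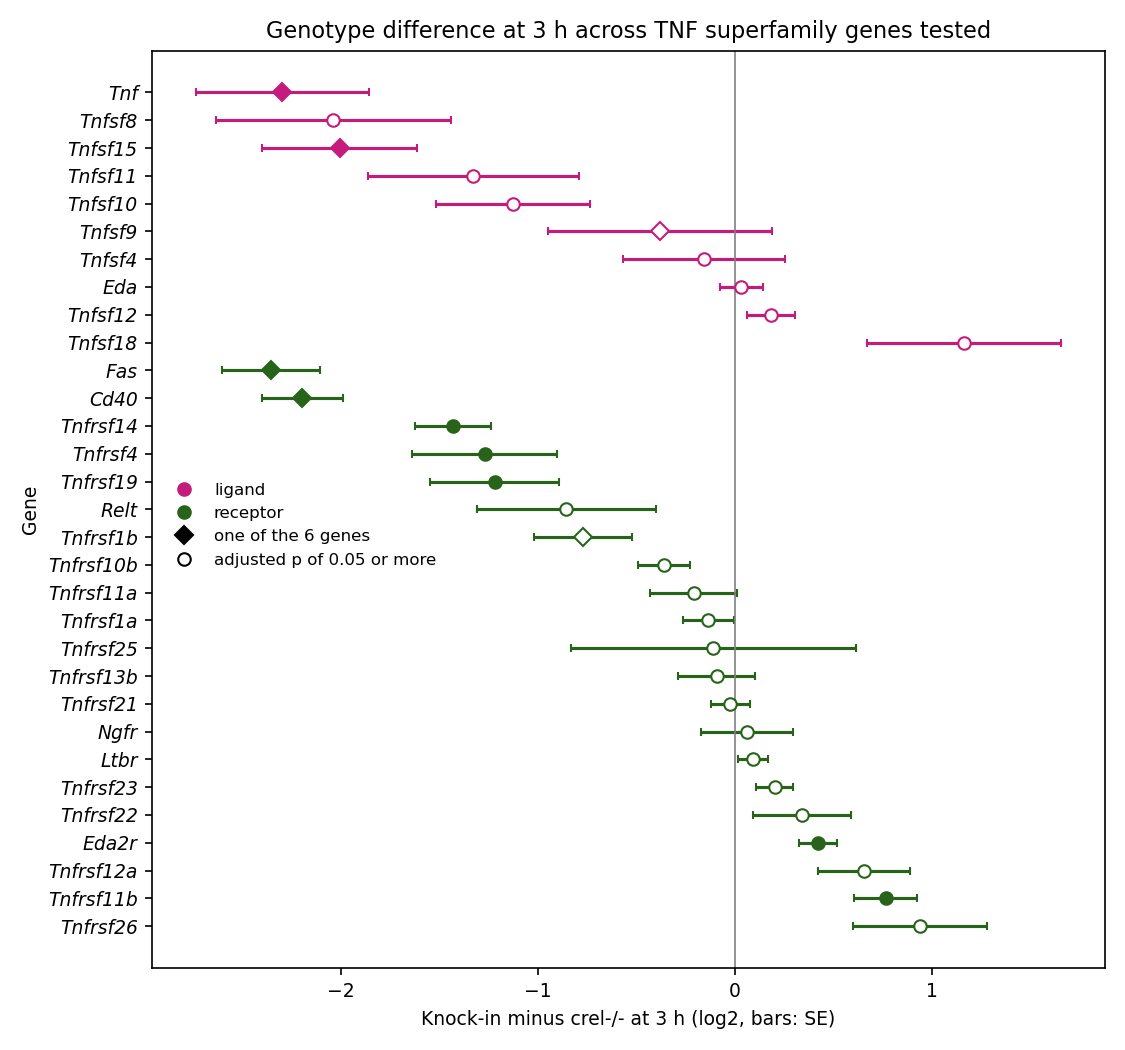
Fitted genotype difference at 3 h (log2, knock-in minus crel-/-, horizontal axis) of each tested ligand (pink) and receptor (green) of the TNF superfamily, 1 row per gene; bars are standard errors, diamonds are the 6 genes described above, and filled points passed the adjusted threshold of 0.05. Tnf, Tnfsf15, Fas and Cd40 lie below -2, and the other receptors that passed lie on both sides of 0.

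The 32 genes that act next to the receptors (TRAF adaptors, kinases, caspases and inhibitors) were all tested. In knock-in cells at 3 h none was higher and 12 were lower (median -0.18), where 8.20% of all genes were higher and 8.35% lower. The lowest of them were these. Tnfaip3, which encodes the deubiquitinase A20, had a log2 difference of -2.87 (SE 0.24, adjusted p = 2.9e-04). Tnip1, whose product binds A20, differed by -2.09, Nfkbia, the inhibitor IkBa, by -1.96, and Birc3, the ubiquitin ligase cIAP2, by -1.46. Over all conditions 10 were lower and 1 higher (7.81% and 7.99% of all genes). With LPS at 3 h 20 rose and 5 fell (median 0.50), against 29.2% and 28.3% of all genes, while by library totals 10 rose and 11 fell, with Traf1 (6.82), Tnfaip3 (6.24), Nfkbia (3.95) and Birc3 (3.42) the largest rises and Tab1 (-1.39), Fadd (-1.20), Traf4 (-1.04) and Tradd (-0.57) the largest falls. With TNF 14 rose and 2 fell (18.7% and 16.0% of all genes), and at 3 h of IL-1b 7 rose and none fell (16.9% and 13.8% of all genes; 4 and 1 of the list by library totals).

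Over the 20 libraries, 4 of the members had the most alike levels. Pearson's r of log2 CPM was 0.75 to 0.89 between any 2 of Tnfsf15, Cd40, Fas and Tnfrsf1b. It was 0.67 between Tnf and Tnfsf9, 0.34 to 0.58 between Tnf and those 4, and -0.12 to 0.03 between Tnfsf9 and those 4. These libraries share their agents, times and genotypes, and the values are descriptions. The tested genes most like Tnf were Il1b (r = 0.94), Ccrl2 (0.93) and Dusp2 (0.90). Those most like Tnfsf9 were Prdm1 (0.73), Nfkbid (0.69) and ENSMUSG00000029333.12 (0.68), which has no symbol here. For Tnfsf15 they were Pfkfb3 (0.96), Arf4 (0.96) and Rela (0.96), and for Cd40 Enpp4 (0.97), Acsl1 (0.97) and Mcur1 (0.97). For Fas they were Nfkb1 (0.97), Cx3cl1 (0.97) and the ligand gene Tnfsf8 (0.97), and for Tnfrsf1b Mapkapk2 (0.95), Plagl2 (0.94) and Kctd15 (0.92).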

How the data were processed

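Messenger RNA of 20 samples of mouse embryonic fibroblasts was sequenced from stranded libraries (single-end, 50 bases, 12 PCR cycles), per the labels' protocols. The authors deposited raw read counts per gene; the submitters' processing notes name cutadapt 1.12, STAR, featureCounts 1.5.1, DESeq2 and mm10. The annotation, strand setting and treatment of multiply mapped reads are not given in the sources here, so reads of overlapping genes may not be told apart. Symbols from GENCODE were matched to 98.8% of 45706 gene identifiers. Genotype, agent and time come from the labels, each combination with 1 library of 9248151 to 12574135 counts.

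Counts were tested with edgeR 4.0.16 in R 4.3.3 (quasi-likelihood F test, robust, TMM scaling, Benjamini-Hochberg over the 14023 genes that reached 1 CPM in 2 or more libraries, which hold 99.9% of counts; threshold 0.05). The filter kept all 6 genes. A difference over all conditions was fitted with condition and genotype terms (9 residual degrees of freedom), which also gave the responses from 2 libraries on each side. The difference by time or by agent was fitted with a genotype effect for each (6), and that of stimulated against unstimulated cells likewise (8). Standard errors were obtained by dividing the size of a log2 change by the root of its F statistic. Log2 CPM for correlations used a prior count of 2. Scripts were tested on simulated data. Alternatives were RLE scaling, library totals, no filter, DESeq2 1.42.0, limma-voom (limma 3.58.1), each pair or library left out, and a genotype term at each time, the last added after the data were seen.

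Named genes are the 6 members in every comparison, up to 4 genes per list and direction with the largest fold change among those that passed, and the 3 genes most correlated with each member; marker genes and Tnfrsf1a, Tnfsf4, Cd40lg and Fasl were named after their values were seen. The members and lists were chosen with earlier results of these data known.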

Additional observations from a re-analysis of the deposited data

Results flagged for a closer look

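Fas was flagged because its genotype difference changed with time in a direct test. The difference at 3 h minus that at 0.5 h was -2.08 on the log2 scale (SE 0.40, adjusted p = 0.039, edgeR's quasi-likelihood test over all genes). In the 3 h pairs the crel-/- level was 3.49-fold to 6.83-fold the knock-in level, and in the 0.5 h pairs 0.884-fold to 1.42-fold. These ranges did not overlap, but they are the values the test itself used and add no support to it. The adjusted p was 0.056 to 0.137 without any 1 of 7 pairs and 0.099 without the filter on low counts.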

How the results depend on the processing

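Of 63 values of the 6 genes under 759 alternatives, 670 kept their direction and side of the threshold, 71 no longer passed, 18 newly passed and 0 reversed. This total holds values far from the threshold, so it does not measure how firm a call is. The Fas call for 3 h minus 0.5 h was lost in 8 of 14 alternatives and that of Tnf for TNF at 0.5 h in 7 of 10. The Cd40 genotype call at 3 h was lost in 0 of 14. The number of the 6 genes that passed moved by over 1.5 times as follows, and values within that limit are left out. Without the filter on low counts it was 1 for the genotype difference at 0.5 h and at 1 h and for LPS at 1 h, 2 for TNF at 3 h, and 0 for IL-1b at 1 h and 3 h, TNF at 0.5 h and IL-1b minus TNF at 3 h; more genes are adjusted over there. With DESeq2 it was 4 for the genotype difference at 1 h, 3 for that at 3 h minus 0.5 h, 2 for LPS at 0.5 h and 1 for TNF at 1 h. With limma-voom it was 0 for TNF at 0.5 h and for IL-1b minus TNF. With a genotype term at each time, added after the data were seen, it was 2 for IL-1b at 1 h and 0 for TNF at 0.5 h; the cause of these shifts was not tested. With 1 pair left out it ranged from 0 to 2 at 0.5 h, 0 to 4 at 1 h, 2 to 4 at 3 h and 0 to 1 for 3 h minus 0.5 h. With 1 library left out it ranged from 0 to 1 for IL-1b at 1 h, 0 to 3 for IL-1b at 3 h, 1 to 1 for LPS at 1 h, 0 to 0 for TNF at 0.5 h, 0 to 4 for TNF at 3 h and 0 to 1 for IL-1b minus TNF; a lone library left on 1 side is assumed to vary like the others.

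Over all genes, the number that passed moved by over 1.5 times as follows. By library totals, 3300 genes passed for IL-1b at 1 h in place of 2174, 1359 for LPS at 0.5 h in place of 844 and 2969 for LPS at 1 h in place of 1916. DESeq2 called 163 genes for TNF at 0.5 h in place of 55, 6 for stimulated minus unstimulated and 23 for LPS minus IL-1b in place of 0, 8 for LPS minus TNF in place of 3 and 108 for IL-1b minus TNF (genotype differences) in place of 49. Without the filter these 4 were 2, 3, 11 and 110, and limma-voom called 3 for LPS minus IL-1b. Leaving out 1 pair or library gave 80 to 492 genes at 0.5 h (361 with all), 127 to 760 at 1 h (480), 136 to 672 for 3 h minus 0.5 h (483), 3 to 58 for the IL-1b minus TNF genotype difference (49), 2 to 5 for LPS minus TNF (3) and 0 to 4 for LPS minus IL-1b (0). For the responses it gave 520 to 806 with IL-1b at 0.5 h (1558), 683 to 1329 at 1 h (2174) and 1668 to 4763 at 3 h (4306), 235 to 441 with LPS at 0.5 h (844) and 634 to 1100 at 1 h (1916), 2 to 16 with TNF at 0.5 h (55), 80 to 229 at 1 h (565) and 2438 to 3579 at 3 h (4861), and 1083 to 2365 for IL-1b minus TNF at 3 h (2219). No paired analysis by replicate number was possible because the labels carry none; the condition term already pairs the libraries of a condition. Depth limits Cd40 most, with 8 counts in each 0 h library.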
